A study of Sus scrofa with 9 samples.

Results

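The genes described here encode proteins of the outer dense fibres and the fibrous sheath of the sperm tail. They were taken as a fixed list of 10 symbols, mapped from the Ensembl pig identifiers of the deposited tables, and 7 of the 10 were found among 22342 genes: ODF1, ODF2, CIMAP1A, OAZ3, AKAP3, AKAP4 and ROPN1L. No identifier was paired with ROPN1, FSIP2 or FSCB, which are therefore not analysed here. All 7 passed the filter on low counts. RNA was sequenced from pig testis cells labelled spermatogonia (libraries 1, 2 and 3), spermatocytes (libraries 2, 3 and 4) and round spermatids (libraries 1, 2 and 3), 9 libraries in all. Spermatogonia are the dividing germ cells at the start of spermatogenesis, spermatocytes pass through meiosis, and round spermatids are haploid and go on to grow a tail. No treatment or mutation is named for any group, and the sources used here do not give breed, age or how the cells were isolated. The labels speak of 3 biological samples a stage without naming animals, so a p-value reflects only how these libraries vary, in part perhaps for technical reasons. The study followed gene expression beside chromatin structure.

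The tail of a mammalian sperm carries, around its microtubule core, the outer dense fibres, which are stiff rods rich in cysteine, and, along the principal piece, the fibrous sheath of longitudinal columns and ribs. The sheath also anchors protein kinase A and enzymes of glycolysis. Most of these proteins are known from rodents and humans as products of the haploid phase, made while the tail is built in elongating spermatids, and many of their transcripts are stored before translation.

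Library totals ran from 47963279 to 64639201 estimated counts, and the lowest value of any member was 195 estimated counts, for CIMAP1A in spermatocytes 3. Within a gene, levels are given in CPM (per-million counts after TMM scaling of each library), and between genes in TPM, which is per length. The SD of a member's CPM was 0.793 to 3.81% of its mean in spermatogonia, 4.73 to 54.1% in spermatocytes and 2.13 to 23.4% in round spermatids. The spermatogonia libraries thus lay close together. If they are repeats of 1 sample, p-values against spermatogonia are too small, which was not tested. All 9 libraries share an estimate of the spread. The close spermatogonia libraries can therefore also lower p-values of round spermatids relative to spermatocytes. In turn, the wider spread of spermatocytes enters the comparison of round spermatids with spermatogonia. An alternative summed the spermatogonia libraries into 1 library. Markers were spread unevenly over the labels. The summed level of 7 spermatid markers, among them the protamines PRM1 and PRM2, was 1786 to 1829 CPM in spermatogonia, 485 to 1561 in spermatocytes and 4934 to 7254 in round spermatids. PRM1 alone made up 41.3 to 51.7% of that sum. In round spermatids relative to spermatogonia 5 of the 7 were called higher, while the acrosome genes ACRV1, at 52.7 against 119 CPM, and SPACA1, at 40.8 against 81.8 CPM, were called lower. The summed level of 9 spermatocyte markers was 651 to 658, 2375 to 2874 and 233 to 303 CPM across the same stages, and SYCP2 and MEIOC, at means of 983 and 849.8 CPM, made up most of the spermatocyte value. Of the 9, 7 were called higher in spermatocytes than in spermatogonia, and TEX101, at 36.8 against 180.5 CPM, and SPO11, at 2.62 against 6.97 CPM, were called lower. Of markers of other cells, 7 of smooth muscle summed to 19.5 to 20.6, 10.1 to 22.9 and 4870 to 6167 CPM, 6 of Leydig cells to 297 to 316, 1.88 to 2.96 and 25.6 to 33.8, and 9 of Sertoli cells to 249.98 to 258, 37.0 to 57.2 and 1101 to 1189. INSL3 and CYP17A1, at means of 173 and 98.0 CPM, made up most of the Leydig value in spermatogonia. HSD17B3 of that list went the other way, at 11.4 CPM in round spermatids against 2.67 in spermatogonia. CLU, at means of 804 and 184 CPM, made up most of the Sertoli value in round spermatids and in spermatogonia. The sums for 4 endothelial and 6 leukocyte markers were 166 to 189.6 and 25.8 to 33.5 CPM in round spermatids, at most 16.8 and 3.85 elsewhere. Of all markers, 1 of the Sertoli list, AMH, was at 0 in every library of a stage, the spermatocytes. The 7 spermatogonia markers summed to 93.8 to 97.7, 34.8 to 46.1 and 78.4 to 84.0 CPM. KIT, the receptor whose name heads the spermatogonia columns, had means of 6.36 CPM in spermatogonia, 7.47 CPM in spermatocytes and 24.6 CPM in round spermatids, and the spermatogonia marker UCHL1 averaged 26.1, 1.72 and 1.90. The spermatogonia libraries thus held spermatid and Leydig transcripts and the round spermatid libraries smooth muscle and Sertoli transcripts. The stage names used here are therefore only those of the sample titles. Columns headed with KIT and with the pachytene stage were matched to these titles by meaning and number, which the labels do not state. In bulk samples, fewer cells of a type and less RNA per cell cannot be told apart, and the part of other cells in the results below was not tested.

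ODF1, a small heat shock related protein and the main component of the outer dense fibres, was lowest in spermatocytes. It stood at 314, 301 and 314 CPM in spermatogonia 1, 2 and 3, at 124, 46.5 and 160.3 CPM in spermatocytes 2, 3 and 4, and at 439.5, 417 and 368 CPM in round spermatids 1, 2 and 3. No library of one stage overlapped another stage. ODF1 fell in spermatocytes relative to spermatogonia, by 1.49 ± 0.341 (SE) on the log2 scale, and was 3.70-fold higher in round spermatids than in spermatocytes, a log2 fold change of 1.89 ± 0.345 (edgeR quasi-likelihood test, adjusted p = 0.0026 and 0.000472). Between round spermatids and spermatogonia the log2 fold change of 0.40 was not called, with a 95% interval from -0.26 to 1.05 (edgeR, adjusted p = 0.29). That difference was called without spermatocytes replicate 3, a library outside the comparison that enters the shared estimate of the spread (log2 fold change 0.39, edgeR adjusted p = 0.0133), and when only the 2 stages were fitted (0.45, adjusted p = 0.00445). On TPM its sign was negative, at -0.22 and not called.

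ODF2, an outer dense fibre protein that other cells use as a part of the centriole, had the highest level of the members in CPM in every library and was highest in spermatocytes. It stood at 1861, 1865 and 1811 CPM in spermatogonia, at 2896, 2945 and 2691 CPM in spermatocytes and at 1956, 1396 and 1848 CPM in round spermatids. The spermatocyte libraries lay above all others, while spermatogonia and round spermatids overlapped. ODF2 was 1.54-fold higher in spermatocytes than in spermatogonia and 1.64-fold lower in round spermatids than in spermatocytes, with log2 fold changes of 0.62 ± 0.134 and -0.71 ± 0.134 (edgeR, adjusted p = 0.00174 and 0.000566). The rise in spermatocytes depended on the scale. It was 0.10 and not called on TPM, where the stage means of 1051 ± 17.8 TPM in spermatocytes and 982 ± 14.1 TPM in spermatogonia (SD, n = 3 each) lay close together, and it lost its call with no normalization factors (log2 0.20, edgeR adjusted p = 0.0715) and with the spermatogonia libraries summed (0.56, adjusted p = 0.0939). Round spermatids and spermatogonia gave -0.09, with an interval from -0.35 to 0.17 (edgeR, adjusted p = 0.545), whereas on TPM the value was -0.72 and called (limma, adjusted p = 0.000718).

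CIMAP1A, formerly ODF3, a microtubule-associated protein of the tail, was the member with the largest differences and was highest in spermatogonia. It stood at 47.5, 48.2 and 49.7 CPM there, at 8.51, 4.26 and 10.3 CPM in spermatocytes and at 5.40, 3.34 and 4.43 CPM in round spermatids. Spermatogonia lay far above both later stages, which overlapped each other. Its level was 6.30-fold lower in spermatocytes than in spermatogonia and 11.04-fold lower in round spermatids than in spermatogonia, with log2 fold changes of -2.66 ± 0.289 and -3.46 ± 0.300 (edgeR, adjusted p = 1.85e-05 and 1.93e-06), called in all 22 alternatives. CIMAP1A was also called lower in round spermatids than in spermatocytes (log2 fold change -0.81, edgeR adjusted p = 0.0224). That call was lost in 7 of 22 alternatives, with adjusted p up to 0.246, among them those without spermatocytes replicate 2 or 4 (log2 -0.74 and -0.55) and without round spermatids replicate 2 or 3 (log2 -0.65 and -0.82).

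OAZ3, an antizyme made in haploid germ cells whose loss in mice leaves sperm heads detached from tails, showed the steepest rise into round spermatids. It stood at 244, 229.6 and 227 CPM in spermatogonia, at 158, 48.9 and 167 CPM in spermatocytes and at 721, 576 and 661 CPM in round spermatids. The stages did not overlap. OAZ3 was 5.24-fold higher in round spermatids than in spermatocytes and 2.79-fold higher than in spermatogonia, with log2 fold changes of 2.39 ± 0.367 and 1.48 ± 0.356 (edgeR, adjusted p = 0.000133 and 0.00299). The rise over spermatogonia lost its call on TPM (log2 0.86, limma adjusted p = 0.0718) and with the spermatogonia libraries summed (1.42, edgeR adjusted p = 0.0643). OAZ3 fell in spermatocytes relative to spermatogonia, by 0.91 ± 0.352 on the log2 scale (edgeR, adjusted p = 0.0383), a call held in 12 of 22 alternatives with adjusted p from 0.00348 to 0.153. It was lost without any 1 of the spermatogonia libraries 1, 2 or 3 (adjusted p = 0.0821, 0.07 and 0.0684) and without round spermatids replicate 1 or 3 (0.0501 and 0.0527), and the value was -0.52 without spermatocytes replicate 3.

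AKAP3 and AKAP4 are the scaffold proteins of the fibrous sheath, which bind the regulatory subunits of protein kinase A, and AKAP4 is its most abundant protein. AKAP3 stood at 263, 271 and 265 CPM in spermatogonia, at 129, 78.8 and 177 CPM in spermatocytes and at 96.99, 122 and 117 CPM in round spermatids. AKAP4 stood at 166, 168 and 165.2 CPM in spermatogonia, at 112, 47.96 and 164.9 CPM in spermatocytes and at 279, 281 and 270.1 CPM in round spermatids. The scaffolds thus had different orders, AKAP3 with every spermatogonia library above all later ones, AKAP4 with every round spermatid library above all earlier ones and spermatocytes 4 just under spermatogonia.

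AKAP3 fell in both later stages relative to spermatogonia, with log2 fold changes of -1.06 ± 0.236 in spermatocytes and -1.25 ± 0.237 in round spermatids (edgeR, adjusted p = 0.00223 and 0.000641). Between round spermatids and spermatocytes it gave -0.19, not called, with an interval from -0.65 to 0.27 (edgeR, adjusted p = 0.464). Without spermatocytes replicate 3 that value was -0.46 and called (adjusted p = 0.0216), and without spermatocytes replicate 4 it was 0.10. AKAP4 was 2.56-fold higher in round spermatids than in spermatocytes, a log2 fold change of 1.35 ± 0.331 (edgeR, adjusted p = 0.0032), called in all 22 alternatives. Against spermatogonia the AKAP4 value was 0.74 in round spermatids, with a normal interval from 0.10 to 1.38 that is narrower than the test implies. This value missed the threshold (edgeR, adjusted p = 0.0595). It passed in 8 of 22 alternatives with adjusted p from 6.83e-05 to 0.819, among them without spermatocytes replicate 3 (0.000834) or 4 (0.0227), while on TPM the value was 0.12. For spermatocytes relative to spermatogonia AKAP4 gave -0.62 and was not called (edgeR, adjusted p = 0.11), with -0.26 without spermatocytes replicate 3 and -1.06, called, without spermatocytes replicate 4 (adjusted p = 0.00876).

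ROPN1L, a ropporin-like protein that binds the AKAP scaffolds through a domain resembling that of the kinase subunit, spanned, with ODF2, the narrowest range over the 9 libraries, with a highest to lowest CPM ratio of 2.11. It stood at 95.2, 95.1 and 91.7 CPM in spermatogonia, at 127, 95.7 and 107 CPM in spermatocytes and at 74.0, 60.2 and 70.2 CPM in round spermatids. Round spermatid libraries lay below all others. ROPN1L fell in round spermatids relative to spermatocytes and to spermatogonia, with log2 fold changes of -0.69 ± 0.126 and -0.46 ± 0.126 (edgeR, adjusted p = 0.000482 and 0.00616). The fall relative to spermatocytes lost its call with no normalization factors (log2 -0.24, edgeR adjusted p = 0.107), and that relative to spermatogonia with the spermatogonia libraries summed (-0.52, adjusted p = 0.0653). Spermatocytes relative to spermatogonia gave 0.23, not called (edgeR, adjusted p = 0.129), and -0.31 on TPM.

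**Figure D1:**
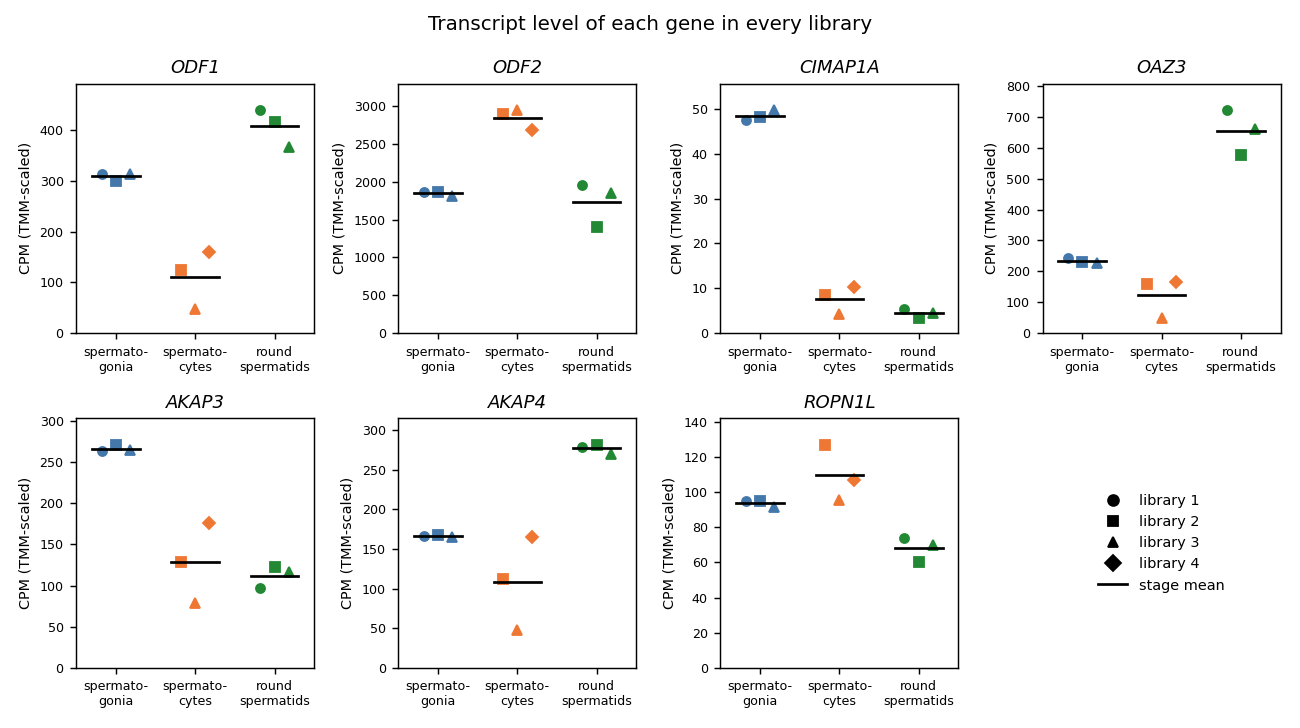
Level of each of the 7 genes in CPM (y axes from 0, linear, each with its own range) in every library of spermatogonia, spermatocytes and round spermatids; symbols give the library number and black bars the stage mean. ODF1, OAZ3 and AKAP4 are highest in the round spermatid libraries, ODF2 in the spermatocyte libraries, and CIMAP1A and AKAP3 in the spermatogonia libraries.

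In each comparison members were called in both directions, as were all genes tested. For spermatocytes relative to spermatogonia, 1 of 7 was called higher and 4 lower, where 73.4% of all 16802 genes tested were called, 29.3% higher and 44% lower. The members' median log2 fold change was -0.91, against -0.32 over all genes. For round spermatids relative to spermatocytes, 3 of 7 were called higher and 3 lower, where 79.2% of all genes were called, 42.7% higher and 36.4% lower, with medians of -0.19 and 0.19. For round spermatids relative to spermatogonia, 1 of 7 was called higher and 3 lower, where 79.2% of all genes were called, 39.5% higher and 39.7% lower, with medians of -0.09 and 0.00. Most genes were called in each comparison, and the members' counts were not tested against the shares of all genes. Without spermatocytes replicate 3, 2 members were called higher in spermatocytes than in spermatogonia and 3 in round spermatids than in spermatogonia, and 2 in round spermatids than in spermatogonia without spermatocytes replicate 4. Libraries did not overlap for 7 of 7 members between spermatocytes and spermatogonia (79.9% of all genes), 5 of 7 between round spermatids and spermatocytes (78.2%) and 6 of 7 between round spermatids and spermatogonia (85.2%). Between spermatocytes and spermatogonia, AKAP4 and ROPN1L were only narrowly apart and not called. AKAP4 stood at 164.9 CPM in spermatocytes 4 and 165.2 in spermatogonia 3. ROPN1L stood at 95.7 CPM in spermatocytes 3 and 95.2 in spermatogonia 1. The scaling of libraries shifts the counts of calls. The median of all genes for spermatocytes relative to spermatogonia was -0.74 with no normalization factors and -0.14 with RLE size factors, and higher genes made up 39.98% of calls, 26.83% with no normalization factors and 23.44% on TPM. For round spermatids relative to spermatocytes they made up 53.96%, or 65.66% with no normalization factors, and for round spermatids relative to spermatogonia 49.87%, or 34.85% on TPM.

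**Figure D2:**
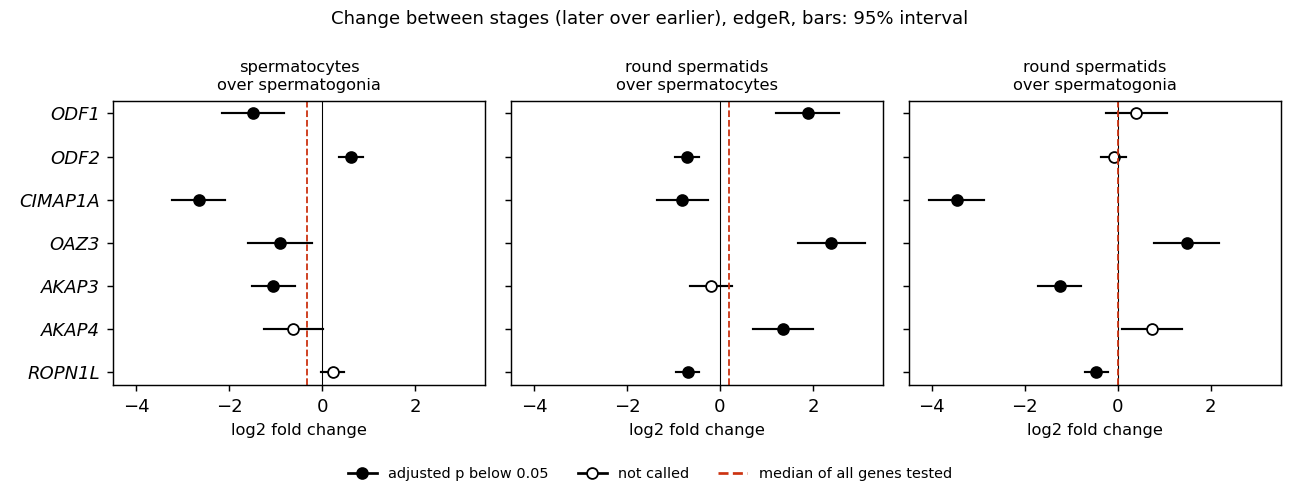
Log2 fold change (x axis) of each gene in the 3 comparisons, later stage over earlier stage, from edgeR, with 95% intervals as bars; filled points have an adjusted p below 0.05 and the dashed line is the median of all genes tested. OAZ3 has the largest rise into round spermatids, 2.39 over spermatocytes, and CIMAP1A the largest falls, -2.66 and -3.46 relative to spermatogonia.

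Ratios of 2 genes within a library do not depend on how libraries were scaled. The ratio of AKAP4 to AKAP3 in TPM was 1.09, 1.08 and 1.08 in spermatogonia, 1.505, 1.06 and 1.62 in spermatocytes and 4.997, 3.99 and 4.01 in round spermatids. Every round spermatid library lay above every library of the other stages, while spermatocytes 3 lay at the level of spermatogonia. The mean log2 ratio was 1.65 higher in round spermatids than in spermatocytes and 1.99 higher than in spermatogonia (exact permutation test, two-sided, p = 0.10 each, the smallest that 3 libraries against 3 allow, and 0.12 adjusted over the 6 comparisons of ratios). Spermatocytes and spermatogonia overlapped, with a difference of 0.34 (exact permutation test, p = 0.40). The ratio of ODF1 to ODF2 was 0.793, 0.757 and 0.813 in spermatogonia, 0.202, 0.0741 and 0.2796 in spermatocytes and 1.05, 1.40 and 0.934 in round spermatids. No stages overlapped. On the log2 scale it was 2.29 lower in spermatocytes than in spermatogonia, 2.79 higher in round spermatids than in spermatocytes and 0.50 higher in round spermatids than in spermatogonia (exact permutation test, p = 0.10 each, 0.12 adjusted).

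**Figure D3:**
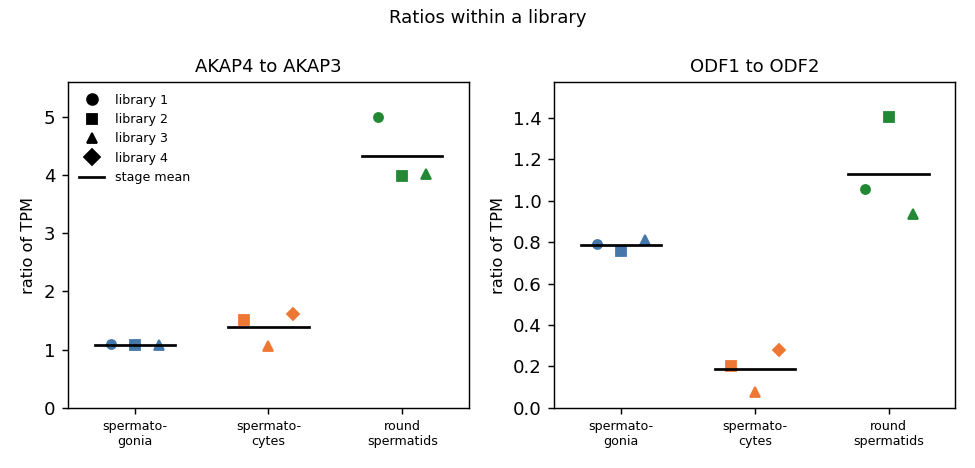
Ratio of AKAP4 to AKAP3 and of ODF1 to ODF2 in TPM (y axes from 0) in every library by stage; symbols give the library number and black bars the stage mean. The AKAP4 to AKAP3 ratio is 3.99 to 4.997 in round spermatids and at most 1.62 elsewhere, and the ODF1 to ODF2 ratio is lowest in spermatocytes, at 0.0741 to 0.2796.

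Per length, the order of the members changed between stages. In spermatogonia it ran from ODF2 at 982 ± 14.1 TPM through ODF1 at 773 ± 16.9, OAZ3 at 709 ± 21.5, ROPN1L at 291 ± 5.25, AKAP4 at 189 ± 2.26 and AKAP3 at 175 ± 3.598 to CIMAP1A at 104 ± 3.05 (SD, n = 3), and no neighbours overlapped. In spermatocytes ODF2 at 1051 ± 17.8 TPM stood apart, and OAZ3 at 266 ± 145, ROPN1L at 236 ± 31.9 and ODF1 at 194 ± 109.7 came next, OAZ3 above ODF1 in each library and ROPN1L at a changing place, and CIMAP1A at 11.6 ± 5.09 was lowest. AKAP4 at 87.1 ± 51.2 overlapped ODF1 and AKAP3 at 59.2 ± 25.5 between libraries, but within each of the 3 libraries ODF1 was above AKAP4 and AKAP4 above AKAP3. In round spermatids OAZ3 led at 1307 ± 257 TPM. ODF1 at 689 ± 233 and ODF2 at 599 ± 70.9 followed with overlapping libraries, then AKAP4 at 213 ± 68.6 and ROPN1L at 139 ± 27.1, which overlapped between libraries but kept that order within each, AKAP3 at 50.3 ± 20.1 and CIMAP1A at 6.08 ± 0.768. By mean TPM, OAZ3 ranked 53 of 22342 genes in round spermatids, ODF1 ranked 116 and ODF2 ranked 147, against ranks of 681, 939 and 110 in spermatocytes. CIMAP1A ranked 8530 in round spermatids and 1978 in spermatogonia.

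The 7 genes together took 0.332 to 0.336% of the deposited TPM in spermatogonia, 0.158 to 0.229% in spermatocytes and 0.2796 to 0.408% in round spermatids. ODF2 made up 30.2 to 30.9% of that pool in spermatogonia, 47.8 to 69.9% in spermatocytes and 17.99 to 21.7% in round spermatids. OAZ3 made up 21.7 to 22.6%, 6.62 to 16.9% and 42.4 to 44.4% across the same stages. The pool in spermatocytes was therefore mostly ODF2 transcript in 2 of 3 libraries, and that in round spermatids was mostly OAZ3, ODF1 and ODF2.

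**Figure D4:**
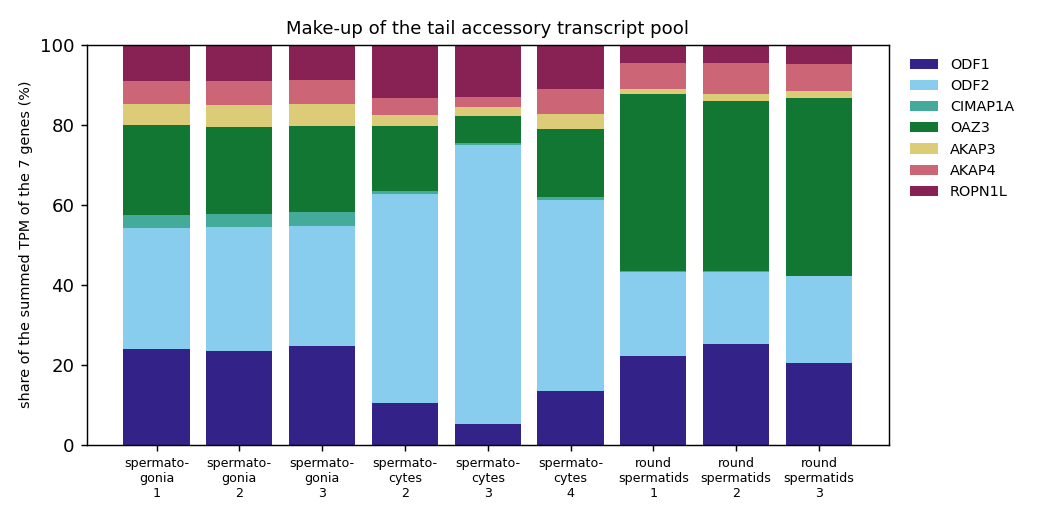
Share of each gene in the summed TPM of the 7 genes (y axis, percent, stacked to 100) in each of the 9 libraries. ODF2 takes 47.8 to 69.9% in spermatocyte libraries, and OAZ3 takes 42.4 to 44.4% in round spermatid libraries.

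The spermatocyte libraries differed among themselves in most members. Spermatocytes 3 held 30.1% of the mean of spermatocytes 2 and 4 for OAZ3, 32.6% for ODF1, 34.7% for AKAP4, 45.4% for CIMAP1A, 51.6% for AKAP3 and 81.8% for ROPN1L, but 105% for ODF2. Over all genes tested the median was 99.1%, and 12.9% of genes were under 50%. The 7 spermatid markers were low in the same library, from 29.2% for TNP2 to 52.5% for SPACA1, while of 9 spermatocyte markers 3 were lowest there, SYCP1 at 62.6%, SPO11 at 61.8% and TEX101 at 55.6%. Spermatocytes 3 was the lowest of the 3 libraries for 34.5% of all genes, for 3 of these 9 markers and for 6 of the 7 members. The part of spermatid RNA in these differences was not tested.

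Set against the summed spermatid markers of the same library, the members differed in their spread. OAZ3 stood at 13.3, 12.8 and 12.7 CPM per 100 CPM of those markers in spermatogonia, at 10.6, 10.1 and 10.7 in spermatocytes and at 9.94, 11.7 and 10.3 in round spermatids. The protamine and transition protein genes PRM1, PRM2, TNP1 and TNP2 make up most of that sum, with ACRV1 at 0.693 to 6.68% and SPACA1 at 0.563 to 4.93%, so the scale is chiefly one of nuclear protein transcripts. OAZ3 on that scale had a highest to lowest ratio of 1.34 over the 9 libraries, where its CPM spanned a ratio of 14.7. Of 16795 genes that passed the filter and are not these markers, 2 had a smaller ratio than OAZ3. AKAP4 and ODF1 spanned ratios of 2.74 and 3.05 on this scale, against 5.86 and 9.46 in CPM, and 1.89% and 2.84% of genes spanned less. Within spermatocytes, the highest to lowest ratio of ODF1 was 1.23 on this scale and 3.45 in CPM, and that of AKAP4 was 1.42 and 3.44. Within round spermatids the scale widened the spread, with a ratio of 1.47 and a CPM ratio of 1.195 for ODF1, and 1.48 and 1.04 for AKAP4. Over the 9 libraries, ODF2, ROPN1L, AKAP3 and CIMAP1A had wider spreads on this scale than in CPM. Their ratios were 22.5, 19.4, 12.2 and 41.1, and their CPM ratios 2.11, 2.11, 3.44 and 14.9. Within spermatocytes the scale widened ODF2 (3.52 and 1.09 in CPM) and ROPN1L (2.88 and 1.32) but narrowed AKAP3 (1.89 and 2.24) and CIMAP1A (1.55 and 2.41). The marker sum itself ran from 485 to 7254 CPM, so a gene that is level in CPM necessarily spreads widely on this scale. These values are descriptions without a test, on a scale chosen after the data were seen.

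**Figure D5:**
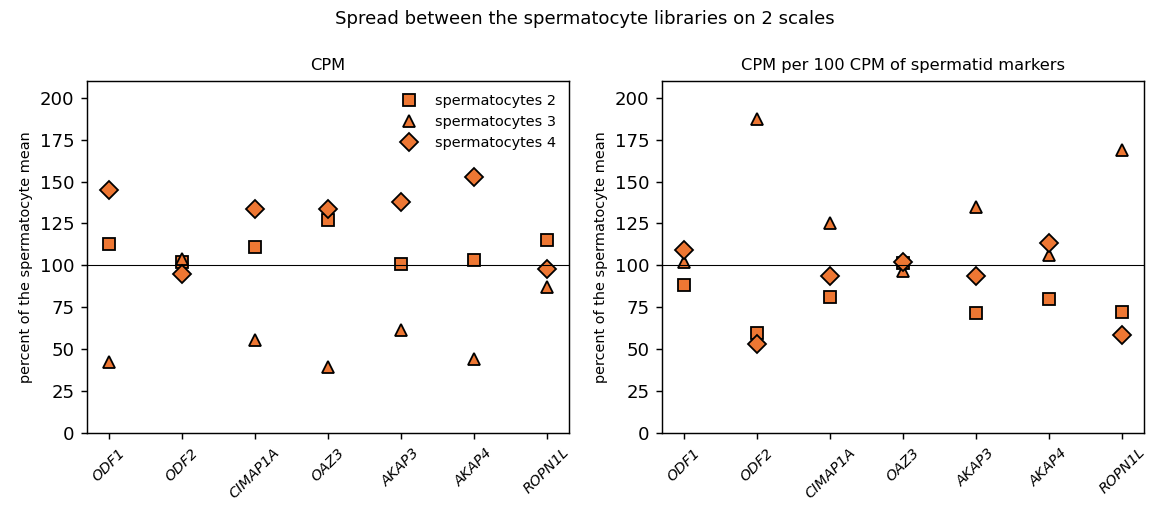
Each gene in spermatocytes 2, 3 and 4 as percent of the mean of those libraries (y axis), in CPM on the left and in CPM per 100 CPM of spermatid markers on the right. In CPM, spermatocytes 3 lies lowest for every gene but ODF2; on the marker scale its OAZ3 and ODF1 lie close to the other libraries while its ODF2 and ROPN1L lie far above them.

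By log2 CPM centred on each gene's mean over the 9 libraries, ODF1 and AKAP4 were the nearest members of each other, with a root mean square difference of 0.37, and ODF2 and ROPN1L of each other, at 0.22. OAZ3 was nearest to ODF1, at 0.46, AKAP3 to ROPN1L, at 0.62, and CIMAP1A to AKAP3, at 0.97. The 5 genes outside the list nearest to the members' mean profile were SEL1L2, MAPT, LPCAT4, TES and DLGAP3, at 0.13 to 0.15 among 7767 genes with a symbol and a mean of 10 CPM or more. The members themselves lay 0.40 to 1.27 from that mean, so it represents none of them closely.

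Among genes tied to the fibrous sheath, 13 of 15 listed were found. For spermatocytes relative to spermatogonia 7 of 13 were called higher and 3 lower (29.3% and 44% of all genes), with a median of 0.42 (all genes -0.32), but 3 were higher with no normalization factors, 2 on TPM and 4 with the spermatogonia libraries summed. NME8, a thioredoxin family protein of the sheath, stood at 788 ± 123 CPM in spermatocytes and 260.3 ± 3.15 in spermatogonia (SD, n = 3 each), and PRKAR1A, a regulatory subunit of protein kinase A, at 835 ± 84.0 and 334 ± 4.49. GAPDHS, the glycolytic enzyme bound to the sheath, was lower in spermatocytes, at 26.6 ± 12.7 against 135 ± 0.398 CPM, and so was the ciliogenesis gene CATIP, at 9.51 ± 5.94 against 32.9 ± 0.869 (edgeR, adjusted p from 3.28e-06 to 0.000898). For round spermatids relative to spermatocytes 2 of 13 were called higher and 9 lower (42.7% and 36.4% of all genes), with a median of -1.13 (all genes 0.19). Relative to spermatogonia the counts were also 2 and 9 (39.5% and 39.7% of all genes), with a median of -0.80 (all genes 0.00). AKAP11, another kinase anchoring protein, stood at 63.7 ± 1.70 CPM in round spermatids and 429 ± 64.5 in spermatocytes, and SLC25A31, a nucleotide carrier of germ cell mitochondria and the sheath, at 5.66 ± 0.445 and 35.9 ± 6.91. GAPDHS rose with AKAP4 into round spermatids, by 2.14 on the log2 scale over spermatocytes, and the kinase subunit gene PRKAR2A by 1.09 (edgeR, adjusted p = 9.54e-05 and 0.00271). At 117 ± 15.3 CPM in round spermatids, GAPDHS was not called against spermatogonia (log2 -0.21, edgeR adjusted p = 0.54). Without spermatocytes replicate 4, 4 of the 13 were higher in round spermatids than in spermatocytes. Relative to spermatogonia, PRKAR2A and PRKAR1A were the 2 higher, with log2 fold changes of 1.19 and 0.50, but on TPM neither was called, at 0.56 and, with the sign turned, -0.11. CABYR, a calcium-binding sheath protein named here after its values were seen, was not called in any comparison, at 280.3 ± 2.39, 255 ± 92.6 and 343 ± 85.1 CPM in spermatogonia, spermatocytes and round spermatids.

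Of 15 genes tied to the outer dense fibres or to the transport of tail proteins, 11 were found. For spermatocytes relative to spermatogonia 3 were called higher and 6 lower (29.3% and 44% of all genes), with a median of -0.70 (all genes -0.32). CCDC38, which acts in the assembly of the tail, was higher at 1584 ± 178 against 279 ± 10.7 CPM, and ODF2L, an ODF2-like centriole protein, at 67.3 ± 4.79 against 21.9 ± 0.321. CIMAP1C, a relative of CIMAP1A, was lower at 4.18 ± 1.31 against 21.9 ± 0.188 CPM, and SPAG4, which binds ODF1, at 8.54 ± 3.41 against 31.7 ± 0.936 (edgeR, adjusted p from 1.88e-06 to 0.000115). For round spermatids relative to spermatocytes 5 were called higher and 5 lower, near the shares of all genes (42.7% and 36.4%), with a median of -0.38 (all genes 0.19). SPAG4 and CCDC42, a partner of ODF1 and ODF2 in the head-tail coupling, rose by 1.24 and 1.13 on the log2 scale. CCDC38 and ODF2L fell by 2.60 and 1.48 (edgeR, adjusted p from 5.4e-07 to 0.00101 for all of these changes). Relative to spermatogonia, SPAG4 and CCDC42 were called lower in round spermatids, with log2 fold changes of -0.65 and -0.53 (edgeR, adjusted p = 0.0332 and 0.0355). In round spermatids relative to spermatogonia 3 were called higher and 6 lower (39.5% and 39.7% of all genes), with a median of -0.53 (all genes 0.00), but none of the 11 was higher on TPM or with the spermatogonia libraries summed. TSSK4, a kinase that phosphorylates ODF2 in mice, stood at 55.7 ± 3.62 against 148 ± 2.56 CPM and the mitochondrial porin VDAC3 at 236 ± 41.8 against 572 ± 15.3. MEIG1, a carrier of tail proteins, was higher by 0.64 on the log2 scale (edgeR, adjusted p = 0.0094), with -0.0177 on TPM.

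Antizymes such as OAZ3 bind ornithine decarboxylase and restrain polyamine synthesis. Of 9 genes of that pathway and of antizyme partners 7 were found. For spermatocytes relative to spermatogonia 1 was called higher and 5 lower (29.3% and 44% of all genes), with a median of -0.92 (all genes -0.32). The counts for round spermatids relative to spermatocytes were 6 and 1 (42.7% and 36.4% of all genes), with a median of 2.24 (all genes 0.19), and for round spermatids relative to spermatogonia 4 and 1 (39.5% and 39.7% of all genes), with a median of 1.07 (all genes 0.00). OAZ1, the most widely expressed antizyme, stood at 54.5 ± 1.36 CPM in spermatocytes and 123 ± 2.54 in spermatogonia. AZIN2, an antizyme inhibitor of testis and brain, stood at 3.58 ± 1.72 and 17.8 ± 0.155, while AZIN1, the widely expressed inhibitor, was higher in spermatocytes at 44.7 ± 3.46 against 22.2 ± 0.799 (edgeR, adjusted p from 1.95e-05 to 9.02e-05), a call lost on TPM (log2 0.48). AZIN2 rose by 2.95 on the log2 scale in round spermatids relative to spermatocytes (edgeR, adjusted p = 9.93e-06). Relative to spermatogonia it was not called (log2 0.64, edgeR adjusted p = 0.0688). OAZ1 stood at 258 ± 46.9 CPM in round spermatids, so that, like OAZ3, it was lowest in spermatocytes and highest in round spermatids. Its rise was 2.24 over spermatocytes and 1.07 over spermatogonia on the log2 scale (edgeR, adjusted p = 9.2e-08 and 2.09e-05). SAT1, which acetylates polyamines for breakdown and is broadly expressed in somatic cells, stood at 115 ± 6.98 CPM in round spermatids, 4.36 ± 0.767 in spermatocytes and 9.88 ± 0.284 in spermatogonia, and the spermine synthase gene SMS at 52.9 ± 17.9, 7.15 ± 1.59 and 5.95 ± 0.290. The marker sums of smooth muscle, endothelial, leukocyte and Sertoli cells, and also that of spermatids, were highest in the same round spermatid libraries. The part of any of these cells in the SAT1 and SMS values was not tested. OAZ2 was lower in round spermatids than in spermatogonia by 0.998 on the log2 scale. Its fall relative to spermatocytes, -0.28 (edgeR, adjusted p = 0.0384), was lost in 14 of 22 alternatives and reversed in 1, with no normalization factors (0.20). The losses included leaving out any 1 of the spermatogonia libraries, spermatocytes replicate 2 or 3, or round spermatids replicate 1 or 3 (adjusted p from 0.0565 to 0.127), so that 0 of the 7 genes were then called lower.

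Of 10 genes of the annulus and midpiece 8 were found. For spermatocytes relative to spermatogonia 3 were called higher and 5 lower (29.3% and 44% of all genes), with a median of -0.50 (all genes -0.32). Between round spermatids and spermatocytes the counts were 2 and 3 (42.7% and 36.4% of all genes), with a median of -0.20 (all genes 0.19), and for round spermatids relative to spermatogonia 2 and 4 (39.5% and 39.7% of all genes), with a median of -0.34 (all genes 0.00). TSSK6, a kinase of late spermatids, and SMCP, the cysteine-rich protein of the mitochondrial sheath, rose by 2.70 and 1.75 on the log2 scale in round spermatids relative to spermatocytes (edgeR, adjusted p = 2.3e-05 and 0.000272). Neither was called in round spermatids relative to spermatogonia (log2 0.37 and 0.44, edgeR adjusted p = 0.291 and 0.178). SLC26A8, an anion transporter of the annulus, and the glycerol kinase gene GK2 fell by 1.86 and 0.86 in round spermatids relative to spermatocytes. SEPTIN7, a filament protein of the annulus and of many other cells, stood at 176 ± 11.3 CPM in spermatocytes and 38.7 ± 1.09 in spermatogonia. SLC26A8 stood at 1348 ± 151 and 754 ± 0.478, and its call was lost on TPM (log2 0.31). TSSK6 was lower in spermatocytes than in spermatogonia by 2.33 on the log2 scale, and GPX4, the selenoprotein of the sperm midpiece, by 1.37. The count of 5 was 3 with RLE size factors, DESeq2, no filter or the spermatogonia libraries summed, and the 3 lower in round spermatids than in spermatocytes were 1 with no normalization factors and 5 with no filter. Relative to spermatogonia, GPX4 and GK2 fell by 1.41 and 1.39 in round spermatids and SEPTIN7 rose by 1.93. The 2 called higher in that comparison were 4 without spermatocytes replicate 3, and 1 where SPATA19 lost its call. SPATA19, a mitochondrial protein of the midpiece, was called higher there by 0.35 (edgeR, adjusted p = 0.0325), with -0.27 on TPM, and the call was lost without any 1 of the spermatogonia libraries or without round spermatids replicate 1 or 3 (adjusted p from 0.0668 to 0.134).

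Positions on Sscrofa11.1 were matched by symbol to a RefSeq table. AKAP4 (ENSSSCG00000012306) is X-linked, at X from 43885584 to 43895142, and the other 6 genes are autosomal. AKAP3 (ENSSSCG00000000720) spans 65788744 to 65816031 of chromosome 5. Chromosome 4 holds ODF1 (ENSSSCG00000006056) at 34511077 to 34520601 and OAZ3 (ENSSSCG00000027091) at 97439993 to 97448493. ODF2 (ENSSSCG00000005651) spans 268856755 to 268893390 of chromosome 1, ROPN1L (ENSSSCG00000022306) spans 43299 to 58569 of chromosome 16, and CIMAP1A (ENSSSCG00000014555), listed there as ODF3, spans 20869 to 25845 of chromosome 2.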

How the data were processed

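Paired reads of total RNA from pig testis cells came from a directional kit, per the labels' protocols. The submitters' processing notes list the build Sscrofa11.1 and the tool bcl2fastq. The sources used here do not give the aligner, the quantifier, the annotation or whether counting used strand. Thus reads shared with overlapping or related genes are uncertain. The authors deposited estimated counts and TPM per gene. Round spermatid columns carry the stage and number of the sample titles. Columns headed with the KIT receptor and with the pachytene stage were matched to spermatogonia and spermatocytes by meaning and number, which the labels do not state. An unused column under another heading shares its number with a spermatogonia title, so the number alone does not fix the match. The other 6 of the 15 library columns were not used. Symbols were paired with 14749 of 22342 identifiers.

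Estimated counts were rounded, filtered with filterByExpr (16802 genes kept), scaled with TMM factors and fitted over all 9 libraries with edgeR 4.0.16 in R 4.3.3 (glmQLFit, glmQLFTest), common dispersion 0.0316. Benjamini-Hochberg adjusted p-values over all genes tested were called below 0.05. CPM use library totals multiplied by TMM factors. The SE of a log2 fold change was taken from its F statistic (absolute log2 fold change over root F), and the 95% interval is normal. Such an interval takes no account of the few libraries, so it is narrower than the test implies. It is also not adjusted for the number of genes, and it can leave out 0 for a gene not called. Alternatives used DESeq2 1.42.0, limma 3.58.1 and log2(TPM + 1) or log2(TPM + 0.1). TPM ratios of 2 genes within a library were compared with exact permutation tests in scipy 1.17.1. Plots used matplotlib 3.10.9. A run on simulated counts, with changes planted in a small part of the genes, checked their recovery. The simulated stages held no broad shift between them, so that run does not bear on the choice of scaling.

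The members, the 4 lists of related genes and the 8 marker lists were chosen with earlier results of these data known. The text names every member, and from each related list and comparison up to 2 called genes per direction with the largest change among those at 10 CPM or more. The comparison of spermatocytes 3 with the other spermatocyte libraries and the scaling to spermatid markers were added after the data were seen.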

Additional observations from a re-analysis of the deposited data

How the results depend on the processing

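Of 15 called changes of members, 9 were called in every alternative that could be run and 6 were lost in at least 1. ODF2 has no value without the 50 most abundant genes, being 1 of them. Genes called higher in spermatocytes than in spermatogonia numbered 4930, against 2604 on TPM with a pseudocount of 1, 2633 with 0.1, 2644 with no filter and 3255 with the spermatogonia libraries summed. Members called higher in spermatocytes than in spermatogonia were 2 with RLE size factors, no filter, DESeq2 or only the 2 stages, and 0 with no normalization factors, on TPM or with those libraries summed. Members called lower in round spermatids than in spermatocytes were 1 with no normalization factors. Members called higher in round spermatids than in spermatogonia were 2 with RLE size factors, without the 50 most abundant genes, with no filter or with DESeq2, 3 with only the 2 stages, and 0 on TPM or with the spermatogonia libraries summed. Leaving out 1 library gave 1 to 2 members higher and 3 to 5 lower for spermatocytes over spermatogonia, 3 higher and 2 to 4 lower for round spermatids over spermatocytes, and 1 to 3 higher and 3 lower for round spermatids over spermatogonia. The sign turned for ROPN1L in spermatocytes over spermatogonia (-0.19 with no normalization factors, -0.31 on TPM). In round spermatids over spermatocytes it turned with no normalization factors for AKAP3 (0.26) and OAZ2 (0.20), while leaving out 1 library gave AKAP3 -0.46 to 0.10. In round spermatids over spermatogonia it turned on TPM for ODF1 (-0.22), PRKAR1A (-0.11), MEIG1 (-0.0177 and, with a pseudocount of 0.1, -0.0178) and SPATA19 (-0.27), and leaving out 1 library gave ODF2 -0.19 to 0.043. For genes above 0 in every library, deposited counts were TPM times a factor per gene and a factor per library. The largest deviation was 3.64e-14 on the natural log scale. A gene's values on TPM therefore differ from the main ones by the scaling of libraries, the pseudocount and the fit. Which of these turned each sign, and the causes of the other changes, were not tested.

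The library numbers are shared between stages, but deviations of same-numbered libraries correlated at -0.0483 to 0.0283, and not every library correlated best with its own number. The numbers were not taken to pair samples, but a pairing is not excluded. Since the spermatogonia libraries lay close together, their deviations could fail to show one. With the number as a replicate block, 4638 genes were higher and 7277 lower in spermatocytes over spermatogonia, with 1 and 5 members. The block gave 7067 and 5949 genes in round spermatids over spermatocytes, with 3 and 2 members, and 6625 and 6753 in round spermatids over spermatogonia, with 2 and 3 members. AKAP3 in round spermatids over spermatocytes was 0.19 under the block. Each member's value rests on at least 195 estimated counts a library and on 3 libraries a stage; the effect of depth was not tested.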
